A study of Mus musculus with 8 samples.

Results

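Genes that mark follicular helper T cells and follicular regulatory T cells were followed in regulatory T cells (Tregs) labelled as lacking Bcl6. They were 10 genes taken by name (Cxcr5, Il21, Sh2d1a, Slamf6, Cd200, Ascl2, Tox, Tox2, Pou2af1 and Cebpa) out of 19937 genes whose probe sets carry 1 gene symbol. Each of the 10 had exactly 1 such probe set, so no choice between probe sets was needed and all 10 were measured. No filter on low values was applied.

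Follicular helper T cells enter B cell follicles and help B cells through contact and secreted interleukin 21, and follicular Tregs, which also carry FoxP3, restrain that help in the same place. BCL6 is the repressor that both cell types need, and the receptor CXCR5 leads both towards the follicle. The adaptor SAP, encoded by Sh2d1a, connects receptors of the SLAM family, among them the product of Slamf6, with kinase signalling during contact with B cells.

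The arrays held 4 KO-labelled and 4 wild-type (WT) samples of FoxP3-positive Tregs sorted from mice, the KO-labelled ones from Bcl6-/- animals. Every sample had been stimulated for 16 h through CD3 and CD28, and each array received label made from 100 ng of RNA. Each genotype had preparations 1 and 2, and each preparation arrays A and B. The design text reads as 2 samples from each of the 4 sources of Tregs, but whether a number or a letter stands for a mouse, a culture or an extract is not stated. A p-value here thus reflects the scatter among these 8 samples alone, and that scatter may be technical. The sources used here do not give strain, age, sex, the deleted stretch of Bcl6 or the cells in which it was deleted. Values are log2 expression, on which 1 unit is a doubling. They ran from 3.72 to 14.6 over all probe sets, without detection calls, so whether a low value lies above background is unknown, and levels of different genes were not set against each other.

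Treg markers were read in both groups, and the arrays differed in more than genotype. Foxp3 stood at 10.75 ± 0.31 under the KO label against 9.91 ± 0.28 in WT (SD, n = 4 arrays per group). The log2 sum of 8 measured Treg markers ran from 13.29 to 14.05 over KO-labelled and from 12.46 to 13.26 over WT arrays. Of the 8, 7 had a higher KO mean, beside 8616 of all 19937 genes, and Gpr83 had a lower one (-0.53 log2). Without an array of other cells, these levels do not establish Treg identity. Bcl6 itself was 8.72 ± 0.24 against 8.13 ± 0.25 (SD, n = 4 each), which does not check the labels because the place of the probes is not known. The spread of each array (SD of its log2 values) was 1.87 and 1.84 in KO 1A and KO 1B and 1.56 to 1.70 in the other 6 arrays. Genes on the Y chromosome (Eif2s3y, Kdm5d, Uty) averaged 4.62 to 4.80 log2 per KO-labelled array and 6.94 to 8.30 per WT array, so any effect of sex cannot be told apart from genotype. A bulk array also cannot tell fewer cells of a type from less RNA per cell.

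None of the 10 genes passed the test between KO-labelled and WT Tregs. With limma and Benjamini-Hochberg adjustment over all genes, 0 of 10 were higher and 0 of 10 lower, beside 0.12% of all genes called higher and 0.015% called lower. At an unadjusted p under 0.05 there were also 0 of 10, beside 5.65% of all genes higher and 0.542% lower. That unadjusted count changed with the model. It was 3 with no block or with the preparation number as a replicate block, 2 after quantile normalization or with array weights, and 1 with arrays A and B averaged. Leaving out KO 2B gave 2, leaving out KO 2A, WT 1B or WT 2B gave 1 each, and leaving out all of WT 1 or all of WT 2 gave 1. Without preparation KO 2 it was 4. That fit called 30.1% of all genes higher and 37% lower at an adjusted p under 0.05. For none of these alternatives is the share of all genes at an unadjusted p given here. The counts are thus no result about the follicular genes. The KO-labelled and WT arrays overlapped for all 10 genes. Over all genes the arrays separated with KO above in 6.67% and with KO below in 2.11%. The median log2 difference of the 10 genes was -0.02, against -0.06 over all genes. The largest differences were those of Slamf6, which was 1.64-fold higher in the mean of the KO-labelled arrays, Pou2af1, which was 1.41-fold higher in the WT mean, and Cxcr5, 1.29-fold higher in the WT mean.

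The promoters of Slamf6 and Pou2af1 are shown because these genes had the largest differences, in opposite directions. Both sequences run 5′ to 3′ over the 250 bases before the start site, from RefSeq on GRCm38.p6. Capitals mark CANNTG, the E-box that basic helix-loop-helix factors such as Ascl2 bind.
Slamf6 promoter, chr1:171917212-171917461, plus strand: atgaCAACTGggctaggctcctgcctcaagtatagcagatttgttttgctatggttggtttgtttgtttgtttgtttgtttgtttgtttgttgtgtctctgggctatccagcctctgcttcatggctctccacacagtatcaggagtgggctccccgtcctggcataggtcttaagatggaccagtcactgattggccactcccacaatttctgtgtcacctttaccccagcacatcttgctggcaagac
Pou2af1 promoter, chr9:51213440-51213689, plus strand: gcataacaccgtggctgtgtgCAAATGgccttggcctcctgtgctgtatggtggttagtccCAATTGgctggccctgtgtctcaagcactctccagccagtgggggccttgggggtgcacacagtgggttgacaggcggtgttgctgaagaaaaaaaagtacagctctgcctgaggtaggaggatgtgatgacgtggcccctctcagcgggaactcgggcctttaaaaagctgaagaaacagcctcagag
Slamf6 held 1 E-box and Pou2af1 2, and 66.2% of 32817 promoter windows of this length held at least 1. The BCL6 core TTCCNNGAA and the octamer ATGCAAAT, to which the Pou2af1 product is recruited by OCT factors, were searched on both strands. Neither was found in the 11 windows of the 7 genes with a table entry (Slamf6, Pou2af1, Il21, Ascl2, Tox2, Cd200 and Cebpa). Among all windows 4.06% held the first and 1.60% the second. A match describes letters only, and its absence from these windows says nothing of binding.

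Among the receptors, Slamf6 was the member that differed most. Slamf6, a SLAM receptor that binds itself on neighbouring cells, had log2 levels of 9.54 and 9.38 in KO 1A and 1B, 8.57 and 8.70 in KO 2A and 2B, 8.01 and 8.91 in WT 1A and 1B, and 8.35 and 8.08 in WT 2A and 2B. The KO 1 arrays were above all WT arrays, while WT 1B was above both KO 2 arrays, so the groups overlapped. The fitted log2 difference was 0.71 (SE 0.39, 95% interval -0.13 to 1.55, limma adjusted p = 0.701). It was 1.12 above the WT mean in KO 1 and 0.30 in KO 2.

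Cxcr5, the receptor for the follicular chemokine Cxcl13, ran the other way. Its log2 levels were 5.03 and 5.18 in KO 1A and 1B, 5.39 and 5.29 in KO 2A and 2B, 5.66 and 5.88 in WT 1A and 1B, and 5.51 and 5.33 in WT 2A and 2B. The overlap rested on KO 2A lying above WT 2B, and the other 3 WT arrays were above every KO-labelled array. The log2 difference was -0.37 (SE 0.18, 95% interval -0.76 to 0.01, limma adjusted p = 0.701). KO 1 was at -0.49 from WT and KO 2 at -0.25. The WT preparations themselves differed by 0.35 log2, WT 1 being the higher.

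Cd200, a membrane glycoprotein that signals to inhibitory receptors on other cells, had nearly equal group means of 8.26 ± 0.13 and 8.27 ± 0.39 log2 (SD, n = 4 each). Its levels were 8.39 and 8.35 in KO 1A and 1B, 8.21 and 8.11 in KO 2A and 2B, 8.27 and 8.79 in WT 1A and 1B, and 8.17 and 7.86 in WT 2A and 2B. The WT arrays held both the highest and the lowest value and enclosed all 4 KO-labelled arrays. The log2 difference of -0.01 (SE 0.29, limma adjusted p = 0.986) had a 95% interval from -0.64 to 0.62, and it was 0.09 after centring each array on its median.

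**Figure D1:**
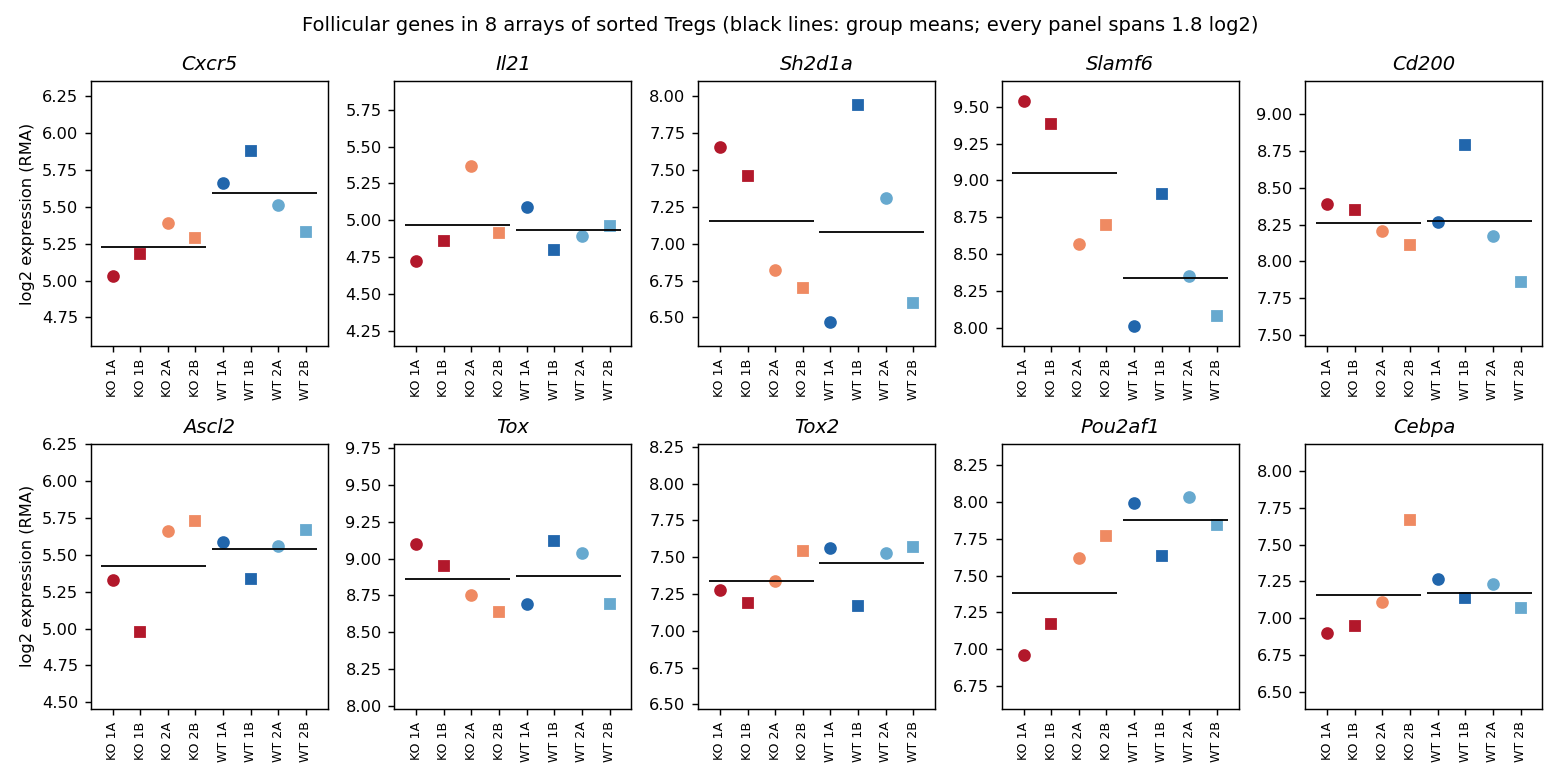
Log2 expression (RMA) of each of the 10 follicular genes in the 8 arrays; circles are arrays A, squares arrays B, colours the 4 preparations and black lines the group means of 4 arrays. Each panel spans the same number of log2 units around its own level, and in every panel the KO-labelled and WT arrays overlap, with Slamf6 at 9.54 and 9.38 in the KO 1 arrays against 8.91 in the highest WT array.

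No difference in the group means was detected for the signalling adaptor or the cytokine. Sh2d1a, which encodes SAP, had log2 levels of 7.66 and 7.46 in KO 1A and 1B, 6.82 and 6.70 in KO 2A and 2B, 6.47 and 7.94 in WT 1A and 1B, and 7.31 and 6.60 in WT 2A and 2B. The highest and the lowest value both came from WT preparation 1, whose arrays lay 1.47 log2 apart. Its log2 difference of 0.08 (SE 0.53, 95% interval -1.08 to 1.23, limma adjusted p = 0.938) was the least precise of the 10. Relative to WT, KO 1 was at 0.48 and KO 2 at -0.32.

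Il21, which encodes the cytokine that drives germinal centre B cells, read 4.72 and 4.86 in KO 1A and 1B, 5.37 and 4.91 in KO 2A and 2B, 5.09 and 4.80 in WT 1A and 1B, and 4.89 and 4.96 in WT 2A and 2B on the log2 scale. KO 2A stood above the other 7 arrays, which spanned 4.72 to 5.09. The log2 difference was 0.03 (SE 0.20, 95% interval -0.41 to 0.47, limma adjusted p = 0.936). Of its pathway, the receptor chain Il21r averaged 9.87 ± 0.51 log2 over KO-labelled and 9.59 ± 0.32 over WT arrays (SD, n = 4 per group). Its adjusted p was 0.719 in limma. Relative to WT, Il21r was at 0.71 in KO 1 and -0.15 in KO 2.

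Among the transcriptional regulators, Pou2af1 had the largest difference. Pou2af1 encodes OBF1, a coactivator of OCT factors first known from B cells. Its log2 levels were 6.96 and 7.17 in KO 1A and 1B, 7.62 and 7.77 in KO 2A and 2B, 7.99 and 7.63 in WT 1A and 1B, and 8.03 and 7.84 in WT 2A and 2B. Both KO 1 arrays were below every other array, and KO 2B lay above WT 1B, so the groups overlapped. The log2 difference was -0.49 (SE 0.27, 95% interval -1.08 to 0.09, limma adjusted p = 0.701). Relative to WT, KO 1 was at -0.81 and KO 2 at -0.18.

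Because Pou2af1 and Cxcr5 are also B cell genes, B cell markers were read beside them. The log2 sum of 13 measured markers was 9.82 and 9.88 in the KO 1 arrays, 10.10 and 10.25 in the KO 2 arrays and 9.90 to 10.22 in the WT arrays. Of these 13 markers, 12 had a mean below WT, beside 11321 of all 19937 genes. Cd79b had a higher one (0.33 log2, with 0.50 in KO 1 and 0.16 in KO 2). In limma 0 of the 13 passed the test between the groups or had an unadjusted p under 0.05. Their median difference was -0.44 in KO 1 and 0.03 in KO 2, beside -0.13 and 0.02 over all genes. Medians in KO 1 were also below 0 for markers of dendritic (-0.32), CD8 T (-0.25), myeloid (-0.23) and NK cells (-0.17). They were above 0 for markers of T cells (0.71) and Tregs (0.89). The part of the B cell markers in the values of Pou2af1 and Cxcr5 was not tested.

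Ascl2, a basic helix-loop-helix factor that can raise Cxcr5 in T cells, read 5.33 and 4.98 in KO 1A and 1B, 5.66 and 5.73 in KO 2A and 2B, 5.59 and 5.34 in WT 1A and 1B, and 5.56 and 5.67 in WT 2A and 2B on the log2 scale. The KO 1 arrays were the lowest and KO 2B the highest, with the WT arrays between. The log2 difference was -0.11 (SE 0.21, 95% interval -0.57 to 0.34, limma adjusted p = 0.774), and it was 0.00 after quantile normalization.

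The HMG-box factors Tox and Tox2, which act in T cell development and in follicular helper and exhausted T cells, spanned little of the scale. Tox had log2 levels of 9.10 and 8.95 in KO 1A and 1B, 8.75 and 8.64 in KO 2A and 2B, 8.69 and 9.12 in WT 1A and 1B, and 9.04 and 8.69 in WT 2A and 2B. Tox2 had 7.28 and 7.19 in KO 1A and 1B, 7.34 and 7.54 in KO 2A and 2B, 7.56 and 7.17 in WT 1A and 1B, and 7.53 and 7.57 in WT 2A and 2B. Each genotype held high and low arrays of both genes, and WT 1B was the highest array for Tox and the lowest for Tox2. The log2 differences were -0.02 (SE 0.28, 95% interval -0.63 to 0.59, limma adjusted p = 0.966) for Tox and -0.12 (SE 0.24, 95% interval -0.63 to 0.39, limma adjusted p = 0.785) for Tox2. The Tox difference moved with the scaling. After quantile normalization it was -0.31 (SE 0.13, unadjusted p = 0.0406, adjusted p = 0.391 in limma), with -0.36 in KO 1 and -0.25 in KO 2, whereas median centring gave 0.08.

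Cebpa, a leucine zipper factor best known from myeloid cells, read 6.90 and 6.95 in KO 1A and 1B, 7.11 and 7.67 in KO 2A and 2B, 7.27 and 7.14 in WT 1A and 1B, and 7.23 and 7.07 in WT 2A and 2B on the log2 scale. KO 2B stood above all others and both KO 1 arrays below all others. The log2 difference was -0.02 (SE 0.27, 95% interval -0.60 to 0.57, limma adjusted p = 0.978), and it was 0.09 after either quantile normalization or median centring. The log2 sum of 11 measured myeloid markers ran from 9.90 to 10.05 over KO-labelled and from 9.76 to 10.13 over WT arrays, and its part in the Cebpa values was not tested.

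**Figure D2:**
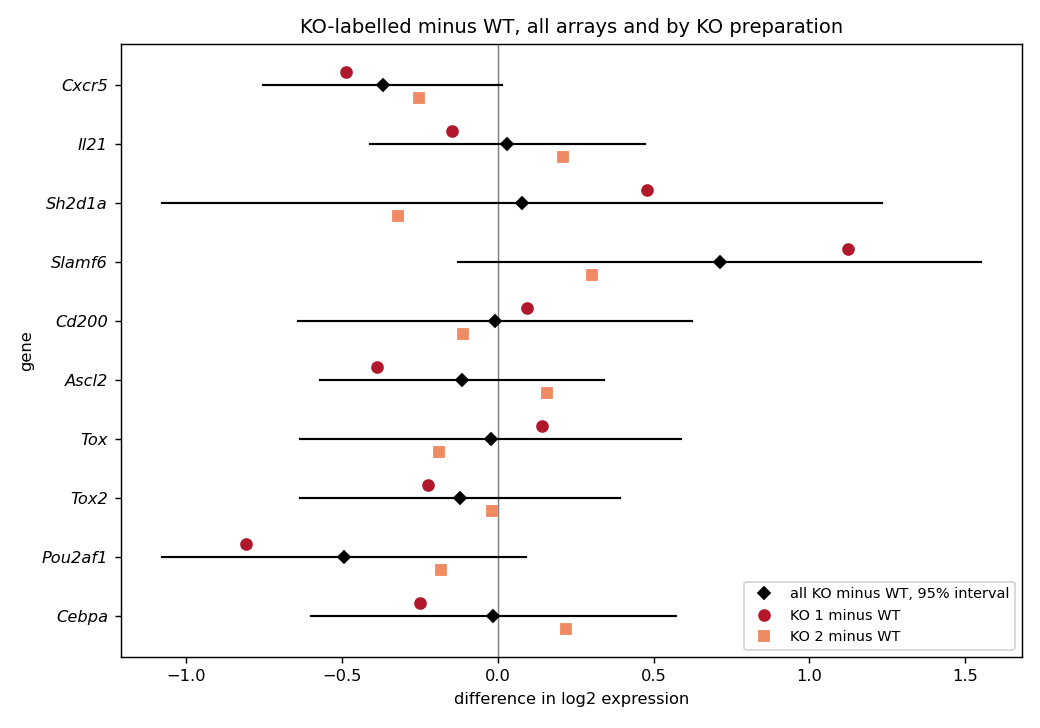
Difference in log2 expression between KO-labelled and WT arrays for the 10 genes; black diamonds with lines are the limma estimate over 8 arrays and its 95% interval, circles KO 1 minus the WT mean and squares KO 2 minus the WT mean. All 10 intervals include 0, and KO 1 lies farther from the WT mean than KO 2 for Slamf6 (1.12 against 0.30) and Pou2af1 (-0.81 against -0.18).

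The KO preparations differed from each other in these genes. Only 4 of the 10 (Cxcr5, Slamf6, Pou2af1 and Tox2) lay on the same side of the WT mean in KO 1 and KO 2, and the other 6 (Il21, Sh2d1a, Cd200, Ascl2, Tox and Cebpa) lay on opposite sides. The direct contrast of KO 1 with KO 2, in a limma fit of 4 preparation means, called 1 of 10 higher in KO 1 and 4 of 10 lower. Its p-values measure only the scatter between arrays A and B within preparations, not the scatter between preparations. The same contrast called 27.7% of all genes higher and 31% lower, so these shares are no result about the follicular genes. Slamf6 was higher in KO 1 by 0.82 log2 (SE 0.25, adjusted p = 0.0168). The difference was -0.63 for Pou2af1 (SE 0.17, adjusted p = 0.0120), -0.55 for Ascl2 (SE 0.14, adjusted p = 0.00838), -0.47 for Cebpa (SE 0.19, adjusted p = 0.0453) and -0.35 for Il21 (SE 0.14, adjusted p = 0.0497). After quantile normalization, which gives all arrays 1 spread, the contrast called 0 of the 10. The count was 1 without KO 1A, KO 1B or KO 2B and 8 without WT 1A or WT 1B. The shares of all genes called in these alternatives are not given here, so none of these counts is a result about the follicular genes.

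The WT arrays did not all resemble each other by preparation. Over all probe sets WT 1A correlated better with WT 2B (r = 0.994) than with WT 1B (0.968). WT 1B correlated better with WT 2A (0.989) than with WT 1A. WT 2A correlated best with WT 2B (0.990), whereas WT 2B correlated better with WT 1A. The spread inside WT 1 enters the error of every contrast of preparations. The contrast between WT 1 and WT 2 called 0 of the 10 genes and 0% of all genes in limma. At an unadjusted p under 0.05 it held 2 of the 10, Cxcr5 and Cd200, beside 1.05% of all genes. WT 1 exceeded WT 2 by 0.35 log2 for Cxcr5 and by 0.51 for Cd200. For Cxcr5 that spread between WT preparations was close in size to the KO minus WT difference of -0.37.

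Against the 4 WT arrays each KO preparation was also fitted alone, with no block, so arrays A and B counted as independent. KO 1 gave 1 of 10 higher, Slamf6 (1.12, SE 0.23, limma adjusted p = 0.00203), and 3 of 10 lower. These were Pou2af1 (-0.81, SE 0.15, adjusted p = 0.00136), Cxcr5 (-0.49, SE 0.14, adjusted p = 0.0105) and Ascl2 (-0.39, SE 0.12, adjusted p = 0.0178). In folds, Slamf6 was 2.18-fold higher in KO 1, and Pou2af1 was 1.75-fold higher in WT. This fit called 30.1% of all genes higher and 37% lower, so these calls are no result about the follicular genes. KO 2 gave 0 of 10 in either direction in limma, beside 0.642% of all genes called higher and 0.0803% called lower. At an unadjusted p under 0.05 KO 2 also gave 0 of 10, beside 6.43% of all genes in either direction. The comparisons of KO 1 and of KO 2 share the WT arrays.

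Arrays with the wider spread of values carried more Slamf6, Sh2d1a and Tox and less Tox2, Ascl2 and Pou2af1. This showed in WT 1B, the WT array with the widest spread (SD 1.70), as well as in KO 1. Against WT 1A, WT 1B was higher by 0.90 log2 in Slamf6, 1.47 in Sh2d1a, 0.43 in Tox and 0.52 in Cd200. Over the 8 arrays Sh2d1a and Tox had a Pearson r of 0.95, and Pou2af1 and Slamf6 of -0.93. Arrays of a preparation are not independent and all genes share each array's spread, so these values only describe the arrays. The part of the spread in the values was not tested beyond the quantile normalization.

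**Figure D3:**
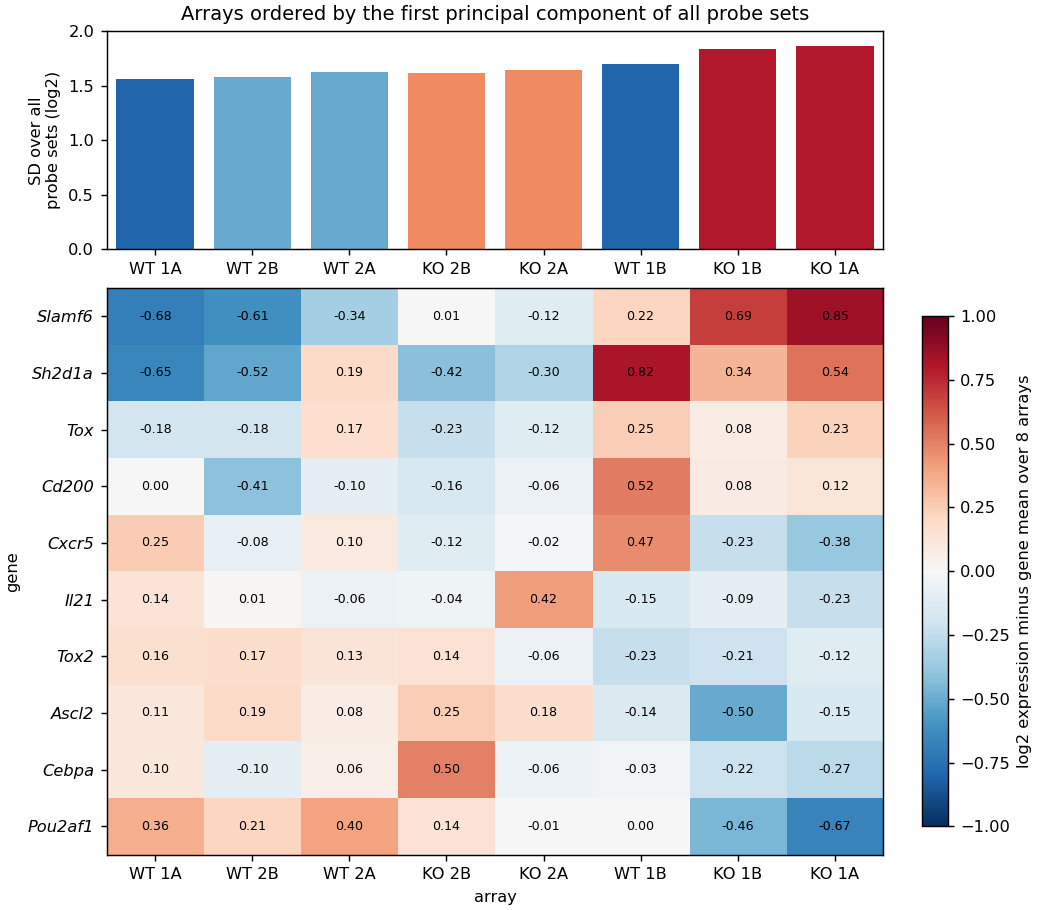
Upper bars give the spread of each array as the SD of its log2 values, and the lower map gives each gene's log2 expression minus its mean over the 8 arrays; arrays run from left to right by their score on the first principal component of all probe sets, and colours of bars mark preparations. Slamf6 runs from low on the left to high on the right, where KO 1B and KO 1A have SDs of 1.84 and 1.87, and Pou2af1 runs from high to low.

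The genes closest in pattern were sought among 5081 genes that ranged over at least 1 log2 unit across the arrays. Slamf6 was most like Map3k5 and Man2a1 (Pearson r of 0.996 and 0.995 over 8 arrays). Sh2d1a was most like Clec2d (0.992) and Cd69 (0.986), an early activation antigen of lymphocytes. Tox was most like Lrmp (0.978) and Snord57 (0.963), and Pou2af1 most like Mir181b-1 (0.982) and Cbln4 (0.976). Ascl2 was most like Nupr1l (0.976) and Wfdc18 (0.960), and Tox2 most like Mir328 (0.963) and Sprr3 (0.947).

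Cd200 was most like Ublcp1 (0.975) and Btla (0.943), the latter an inhibitory receptor that is itself abundant on follicular helper cells. Cxcr5 was most like Zfp640 (0.916) and Tubb2a (0.913), Il21 like Gpr119 (0.893) and St6galnac5 (0.863), and Cebpa like Ces3b (0.874) and Actl9 (0.858). With 8 arrays and 5081 candidates, high values of r arise easily, and these pairs describe the arrays only.

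Genes around the follicular program were read from 5 lists with 69 genes, of which 60 were measured under 1 symbol. The lists also hold antagonists such as Id2, exit receptors, and relatives and partners of the 10 genes. Over these 60, limma called 2 higher, Id2 and Cd200r1, and 0 lower, beside 0.12% and 0.015% of all genes. An unadjusted p under 0.05 was reached by 11 with a higher and 4 with a lower KO mean, beside 5.65% and 0.542% of all genes. The median log2 difference was 0.04, against -0.02 for the 10 genes and -0.06 for all genes. Arrays separated with KO above in 15 and with KO below in 7 of the 60, beside 6.67% and 2.11% of all genes, and the same shares apply to each of the 5 lists. The lists were chosen with earlier results of these data known, so counts above these shares are no sign of enrichment.

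Among regulators around Bcl6, 1 of 14 measured genes rose, 0 fell and 13 did not pass, with a median log2 difference of 0.38. Id2, an inhibitor of E proteins that opposes the follicular program, was 9.06 ± 0.74 against 6.24 ± 0.28 log2 (SD, n = 4 each), a difference of 2.82 (SE 0.35, adjusted p = 0.00652). Its call was lost without WT 1 (adjusted p = 0.0744) or WT 2 (adjusted p = 0.153). Prdm1, whose product Blimp-1 and BCL6 repress each other's genes, differed by 1.98 (SE 0.35, adjusted p = 0.0564). Batf, an AP-1 factor needed for follicular helper cells, differed by 2.05 (SE 0.40, adjusted p = 0.0825). All KO-labelled arrays lay above all WT arrays for these 3 genes. Relative to WT, Id2 was at 3.45 in KO 1 and 2.18 in KO 2. Prdm1 was at 2.72 and 1.24, and Batf at 2.83 and 1.27. Prdm1 passed under 11 of 22 alternatives (limma adjusted p from 1.4e-07 to 0.645) and Batf under 8 (6.19e-07 to 0.667). Alternatives with no block, with the replicate block or without a preparation counted arrays A and B as independent. The one without KO 2 called 30.1% of all genes higher and 37% lower.

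Among surface receptors of follicular cells and receptors of exit from the follicle, 0 of 16 passed in limma, though 4 with a higher and 2 with a lower KO mean had an unadjusted p under 0.05, and the median was -0.005. Icos, a costimulatory receptor on which follicular helper and follicular Treg cells depend, was at 11.25 ± 0.37 against 9.32 ± 0.32 log2 (SD, n = 4 each), a difference of 1.93 with an adjusted p of 0.0676 in limma. Icos passed under 9 of 22 alternatives, with an adjusted p from 2.45e-05 to 0.278, among them 0.00188 after quantile normalization and 0.00398 with no block. Il6ra, a receptor chain for interleukin 6, had a difference of -1.01 (SE 0.32, adjusted p = 0.510). Ccr7, which holds T cells in the T cell zone, had -0.89 (SE 0.30, adjusted p = 0.568). Icos lay above WT in every KO-labelled array, and Il6ra and Ccr7 below. Icos differed by 2.25 in KO 1 and 1.61 in KO 2. Il6ra differed by -1.003 in KO 1 and -1.014 in KO 2, and Ccr7 by -0.99 and -0.79. For Il6ra and Ccr7 both preparations thus gave like values.

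SLAM receptors and SAP adaptors other than Slamf6 and Sh2d1a had 0 of 9 genes past the test in limma and a median of -0.12. Only Cd48, a small SLAM-family ligand, had an unadjusted p under 0.05. Its difference of 1.04 log2 (SE 0.44) had an adjusted p of 0.701, and KO 1 gave 1.52 where KO 2 gave 0.57. Ly9 differed by 0.36 and Slamf7 by -0.20. Of 7 measured genes of interleukin 21 signalling and follicular cytokines, limma called 0, with 0 at an unadjusted p under 0.05. The log2 differences of Stat3, Il4 and Socs3 were 0.69, 0.90 and 0.74, with an adjusted p of 0.701 each in limma. KO 1 and KO 2 were unlike in all of them. Stat3 was at 1.07 from WT in KO 1 and 0.31 in KO 2, Il4, a cytokine of follicular helper cells, at 1.74 and 0.06, and Socs3, an inhibitor of cytokine signalling, at 1.36 and 0.12. Socs3 has 2 probe sets, and the difference of their mean was 0.30.

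Relatives and partners of the 10 genes held the other call. Of 15 measured, 1 rose, 0 fell and 14 did not pass. Cd200r1, the inhibitory receptor that binds the Cd200 product, was 8.03 ± 0.69 against 5.89 ± 0.24 log2 (SD, n = 4 each), a difference of 2.14 (SE 0.33, adjusted p = 0.0284). It lay 2.74 above WT in KO 1 and 1.54 in KO 2, beside 0.09 and -0.11 for Cd200. Cd200r1 no longer passed once KO 1B was left out (adjusted p = 0.0682), nor without WT 2A (0.0662), WT 2B (0.0805), both WT 1 arrays (0.148) or both WT 2 arrays (0.345). It was also lost with median centring (0.0986), with the array letter in the model (0.0520) and with no variance trend (0.0599). Cebpb, of the same leucine zipper family as Cebpa, differed by 1.56 (SE 0.42, limma adjusted p = 0.363). Tcf4, an E protein, differed by -0.37 (SE 0.19, limma adjusted p = 0.701). Relative to WT, Cebpb was at 2.36 in KO 1 and 0.77 in KO 2, and Tcf4 at -0.43 and -0.30.

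**Figure D4:**
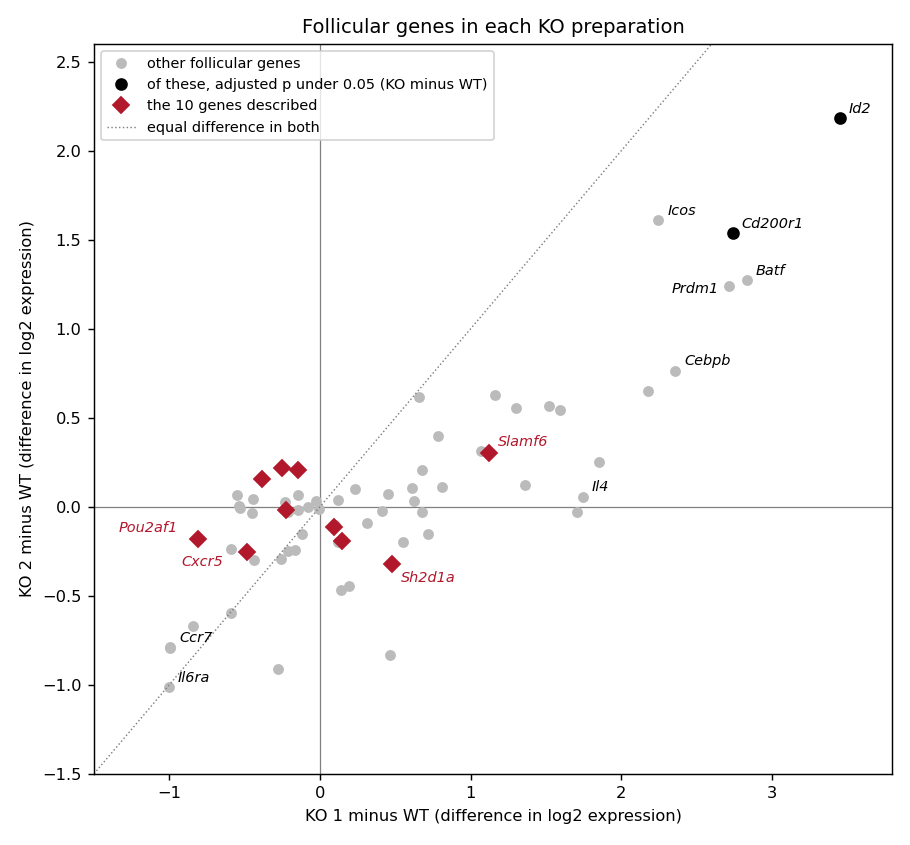
Difference in log2 expression from the WT mean in KO 1 (horizontal) and KO 2 (vertical). Diamonds are the 10 genes, and circles, labelled other follicular genes, are 60 genes of the wider lists. These lists also hold antagonists, exit receptors and relatives of the 10. Circles are black where the limma adjusted p of KO minus WT was under 0.05, and the dotted line marks equal differences. The 10 genes lie between -0.81 and 1.12 in KO 1 and between -0.32 and 0.30 in KO 2, while Id2 lies at 3.45 and 2.18 and Cd200r1 at 2.74 and 1.54.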

How the data were processed

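RNA of 8 samples was measured on Affymetrix whole-transcript arrays. The deposited log2 values, 1 per probe set, come from RMA; the submitters' processing notes name RMA and Partek without versions. They were used without further normalization, all 8 columns were matched to samples and 0 were unused. Names came from the platform annotation: 21771 of 28768 probe sets had 1 symbol, 1557 several and 5440 none listed. For the 999 genes with several sets the one with the highest mean was kept.

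Limma 3.58.1 in R 4.3.3 (lmFit, eBayes with a variance trend) compared genotypes over all genes, with preparation as a random block (duplicateCorrelation, estimate 0.617, or 0.385 to 0.828 with single arrays left out; WT arrays were not most alike within WT preparation 1). Preparations were compared in a fit with 1 mean each. Calls needed an adjusted p under 0.05, two-sided. Scripts were tested on simulated data.

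The members and lists were chosen with earlier results of these data known. Named were the 10 members, Bcl6, Foxp3, list genes that were called, 3 per list by unadjusted p, and for likeness the 2 genes of highest r per member (no predicted genes, receptor segments or olfactory receptors). Il21r, the marker sums and the Y-linked genes were added. List genes under no single symbol were not analysed here. Promoter sequences came from RefSeq. Alternatives were other blocks, scalings, variance models, weights, a filter at a mean of 6, and leaving out arrays or preparations. The same alternatives for the wider lists were added after seeing the data.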

Additional observations from a re-analysis of the deposited data

Results flagged for a closer look

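In 20 groups of 4 arrays (10 genes in each genotype), 1 array stood apart from the other 3 by Dixon's criterion. Tox2 in WT 1B was the lowest of its group, with a gap to the next array of 0.899 of the group's range, at 7.17 against 7.53 to 7.57 log2. With 4 independent arrays, chance flags about 1 in 20 such groups. Arrays A and B of a preparation are not independent and the 10 genes share the arrays, so that rate may not hold here.

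Differences between KO 1 and KO 2 passed, for 5 genes, the limma test of the contrast, whose error is only the scatter between arrays A and B. They were -0.35 log2 for Il21, -0.55 for Ascl2, -0.63 for Pou2af1, 0.82 for Slamf6 and -0.47 for Cebpa, with KO 1 minus KO 2. The same contrast called 27.7% of all genes higher in KO 1 and 31% lower. None of the 5 passed after quantile normalization.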

How the results depend on the processing

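No follicular gene of the 10 was called under 21 of 22 alternatives; without preparation KO 2, 4 were called and the median difference was -0.185. The replicate block by preparation number called 13 of the 60 list genes instead of 2. Over all genes, the deviation of KO 1 from its group mean correlated with that of WT 1 by 0.416. With 2 preparations per group, the deviations of preparation 2 mirror these, so this single value does not show pairing. The list count was 6 with no block, 5 with A and B averaged, 1 with the letter block and 9 after quantile normalization. It was 1 with median centring, 1 with no variance trend and 5 with array weights. It was 5 without preparation KO 1 (0.642% of all genes called higher and 0.0803% lower). It was 39 without KO 2 (30.1% of all genes called higher and 37% lower). It was 0 without WT 1, 0 without WT 2 and 1 to 5 without single arrays. In the main fit 24 of all genes were called higher and 3 lower. These counts were 121 and 36 after quantile normalization and 12 and 2 with median centring. For the other alternatives calls over all genes are not given here, so the list counts are no sign of enrichment. The KO 1 minus KO 2 contrast called 0 of the 10 after quantile normalization and 2 with median centring. It called 3 with a mean level of at least 6, 3 with no variance trend and 1 to 8 without single arrays. The shares of all genes in these fits are not given here, so these counts are no result about the 10 genes. With median centring the members' median was 0.083, and 0.058 for KO 1, which was 0.095 at a level of at least 6. Signs of KO minus WT reversed for Ascl2 (0.0016) and Cebpa (0.094) after quantile normalization, for Tox (0.079), Cd200 (0.093) and Cebpa (0.087) with median centring and for Cd200 (0.135) with array weights. They also reversed for Sh2d1a (-0.322), Ascl2 (0.158) and Cebpa (0.220) without KO 1, Il21 (-0.146), Tox (0.143) and Cd200 (0.095) without KO 2, Cd200 (0.247) and Cebpa (0.013) without WT 1, and Sh2d1a (-0.045) without WT 2. Without single arrays the differences ran from -0.092 to 0.101 for Il21, -0.267 to 0.433 for Sh2d1a, -0.125 to 0.079 for Tox, -0.123 to 0.128 for Cd200 and -0.172 to 0.072 for Cebpa. Signs of KO 1 minus KO 2 reversed for Cxcr5 (0.0026), Tox (-0.110) and Cd200 (-0.115) after quantile normalization and for Cxcr5 (0.046) and Tox2 (0.076) with median centring. The cause was not tested. Without detection calls, low signals such as those of Il21 and Cxcr5 have unknown distance from background.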
